A study of Homo sapiens with 20 samples.

Results

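The data described here are the RNA levels of 10 genes in exosomes and in cytoplasmic RNA granules of HEK293 cells: the actins ACTB, ACTG1 and ACTBL2, the POTE genes POTEE, POTEF and POTEI, which end in an actin sequence, and the myosin light chain genes MYL6, MYL9, MYL12A and MYL12B. They were taken by symbol from 62266 named genes, and all 10 were present. The list was chosen by the fold changes of granules against exosomes in control cells, where POTEE, MYL9 and POTEI had ranks 35, 43 and 46 of 14777 genes, counted from the lowest. That difference is therefore described below and not tested for these genes. HEK293 is a human embryonic kidney cell line. One set of its cells served as control, and in the other a Huntington's disease state (HD) had been induced. The sources used here do not give how this was done, nor whether 1 clone was used. Exosomes are small vesicles that cells release, and the granule samples are cytoplasmic granule cores. Total RNA was sequenced from 5 libraries in each of 4 groups: exosomes and granules of the control cells, and exosomes and granules of the HD-induced cells, the latter called HD exosomes and HD granules. The study calls them biological replicates. Nothing says that they came from separate cultures, so p-values measure the spread between these samples.

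ACTB and ACTG1 encode beta-actin and gamma-actin, the cytoplasmic actins of nearly every non-muscle cell, which polymerise into the filaments of the cell cortex. ACTBL2 encodes a related, much less abundant actin. The POTE genes are a primate family, and in POTEE, POTEF and POTEI an actin retrocopy has become the last part of a longer coding sequence that begins with ankyrin repeats. Myosin light chains bind the neck of the myosin heavy chain: MYL6 encodes the essential light chain of non-muscle and smooth muscle myosin, whereas MYL9, MYL12A and MYL12B encode regulatory light chains, whose phosphorylation switches contraction on. MYL9 is best known from smooth muscle and platelets. ACTB mRNA is a classical example of an mRNA that is carried to a particular place in the cytoplasm before it is translated.

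Because 3 of the genes carry an actin sequence of their own, the sequences decide which reads can be told apart. All sequences below are coding sequence of GENCODE release 29 on build GRCh38, read on the strand of the gene from 5′ to 3′. Over the 1128 coding bases of ACTB, POTEE was identical at 92.7% of positions, POTEF at 92.4%, POTEI at 92.3%, ACTG1 at 91.2% and ACTBL2 at 81.5%. The stretch of 60 bases in which the POTE genes depart most from ACTB, near the end of the coding sequence, is shown to let the genes be told apart by eye. It lies at chr7:5528005-5528064 (minus strand) in ACTB, chr2:131264479-131264538 (plus strand) in POTEE, chr2:130462961-130463020 (minus strand) in POTEI and chr17:81510928-81510987 (minus strand) in ACTG1. Capitals mark differences from ACTB, of which POTEE has 9, POTEI 10 and ACTG1 3. POTEF (chr2:130074389-130074448, minus strand) has the letters of POTEE here.
ACTB: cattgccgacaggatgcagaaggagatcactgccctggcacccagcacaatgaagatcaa
POTEE and POTEF: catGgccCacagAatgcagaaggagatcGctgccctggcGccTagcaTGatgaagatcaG
POTEI: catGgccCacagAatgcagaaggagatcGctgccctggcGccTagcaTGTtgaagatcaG
ACTG1: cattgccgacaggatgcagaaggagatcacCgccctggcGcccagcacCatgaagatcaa

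Among the regulatory light chains, MYL12A and MYL12B shared 92.8% of 516 coding bases, and MYL12A and MYL9 shared 76.4%. Stretches of 60 bases that start after the first 60 coding bases of MYL12A were searched. The one among them in which MYL9 departs most from MYL12A is shown, with capitals for differences from MYL12A: it lies at chr18:3254009-3255763 (plus strand, across an intron) in MYL12A, chr18:3277373-3277782 (plus strand, across an intron) in MYL12B and chr20:36548152-36549094 (plus strand, across an intron) in MYL9.
MYL12A: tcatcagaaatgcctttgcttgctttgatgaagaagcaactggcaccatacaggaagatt
MYL12B: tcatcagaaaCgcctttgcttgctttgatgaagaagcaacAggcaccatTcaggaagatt
MYL9: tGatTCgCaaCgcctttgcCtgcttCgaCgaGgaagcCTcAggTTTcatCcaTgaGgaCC

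Reads were 100 bases long. Windows were taken from the main transcripts of the same GENCODE release and searched in that release only. In ACTB, 99.8% of all windows of 100 bases occurred in no other gene there. A window of that length was shared only with the pseudogene ACTBP2. ACTG1, ACTBL2, MYL6, MYL9, MYL12A and MYL12B shared none. For the POTE genes the picture differed: 45.99% of the windows were particular to POTEE, 48.5% to POTEF and 59.9% to POTEI, and the rest were shared mostly among POTE genes, not with ACTB. At 31 bases, ACTB kept 70.0% of its windows to itself and POTEE 12.47%, and ACTB shared 124 windows with POTEE, 90 with POTEF and 139 with POTEI. Reads with a mismatch, or short after trimming, could therefore be divided between ACTB and the POTE genes, and reads of 1 POTE gene cannot be told from those of another with certainty. How many reads were divided in this way was not tested. Unnamed entries of the quantification, which held 24.9% to 86.6% of the estimated reads per library, were not searched for shared windows. The main transcripts of POTEF, POTEI, MYL9, MYL12A and MYL12B also differed in length from the sequences searched. MYL12A had 958 bases in the quantification and 1229 in the sequence searched. Whether a window was particular to a gene among all quantified entries was therefore not tested.

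Expected counts (estimated reads) on named genes were 5300770 to 9039450 per library in control exosomes and 11355400 to 24515000 in granules. The HD exosomes were shallower: HD exosomes 1, 2, 3 and 5 held 7405990, 1941890, 1327500 and 3003720, and HD exosome 4 held 713 reads, with no read of ACTB and 1 of ACTG1. HD exosome 4 stays in the fits but is left out of the group values below, which therefore have n = 4 in HD exosomes. In HD exosome 2, 86.6% of all estimated reads lay on entries without a gene name. HD granule 3 stood apart from the other HD granules in actin level, as described below. Levels are given as CPM, each gene's count as a share of the counts on named genes times a fixed number, scaled by trimmed means of M values over all 20 libraries. CPM is a share of a library, so fewer copies of an mRNA and more of other RNA cannot be told apart.

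In control cells, both cytoplasmic actins, ACTBL2, the 3 POTE genes and MYL9 were lower in granules than in exosomes, without overlap between the groups. MYL12B was lower in granules by a smaller step, 1.76-fold, and the ranges of MYL12B, MYL6 and MYL12A overlapped between the groups. ACTB mRNA (chromosome 7, 5527148 to 5530601) stood at 5002, 3096, 3104, 4358 and 2721 CPM in control exosomes 1 to 5. In control granules 1 to 5 it stood at 410.1, 364, 265, 205 and 222 CPM. The lowest exosome library was above the highest granule library, and the fitted log2 fold change of granules against exosomes was -3.73 ± 0.27 (SE). ACTG1 (chromosome 17, 81509971 to 81512799) moved in parallel, at 2832 to 5088 CPM in control exosomes and 377 to 696 in control granules, with a log2 fold change of -2.94 ± 0.23. ACTBL2 (chromosome 5, 57480018 to 57482811) was rare in both. It was at 2.69, 3.67, 5.65, 4.07 and 4.15 CPM in exosomes and at 0.623, 0.803, 0.768, 0.7104 and 0.665 CPM in granules, a log2 fold change of -2.56 ± 0.32.

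The POTE genes and MYL9 differed more steeply than the actins. POTEE (chromosome 2, 131209536 to 131265278) stood at 35.0, 13.1, 17.3, 34.6 and 6.91 CPM in control exosomes. In control granules it had no read in 2 libraries and 0.0803, 0.0947 and 0.416 CPM in the others, 7.85 estimated reads in all, for a log2 fold change of -7.50 ± 0.71. POTEF (chromosome 2, 130073535 to 130129222) ranged from 4.66 to 24.3 CPM in exosomes and from 0 to 0.419 in granules (-6.69 ± 0.72), and POTEI (chromosome 2, 130459455 to 130509707) from 3.97 to 20.1 and from 0 to 0.241 (-7.08 ± 0.60). All 3 POTE genes were lowest in control exosome 5, which was also the lowest of its group for ACTB, ACTG1 and MYL9. MYL9 (chromosome 20, 36541519 to 36551447) was at 40.9, 30.3, 28.2, 38.2 and 9.85 CPM in exosomes and at 0.267, 0.241, 0.140, 0.237 and 0.166 CPM in granules, where it rests on 2 to 5.36 estimated reads per library. Its log2 fold change was -7.14 ± 0.45.

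The other light chains differed less. MYL6 (chromosome 12, 56158359 to 56161579) was at 159.9 to 203 CPM in control exosomes and 140.2 to 407 in control granules (0.48 ± 0.23). MYL12A (chromosome 18, 3247482 to 3256237) was at 21.4 to 38.6 and 20.1 to 47.7 CPM (0.18 ± 0.25). MYL12B (chromosome 18, 3262133 to 3278461), its neighbour on the chromosome, was at 42.3, 72.5, 66.0, 63.9 and 63.9 CPM in exosomes and 21.0, 37.9, 31.5, 53.8 and 41.5 in granules (-0.82 ± 0.23). Of the 3, MYL12B leaned to exosomes, with 1 exosome library, control exosome 1, inside the range of the granules. The ranges of 7 members in granules lay wholly below those in exosomes, and 22.1% of 16276 genes did so. Since fold changes of this contrast chose the members, nothing is read from that count.

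**Figure D1:**
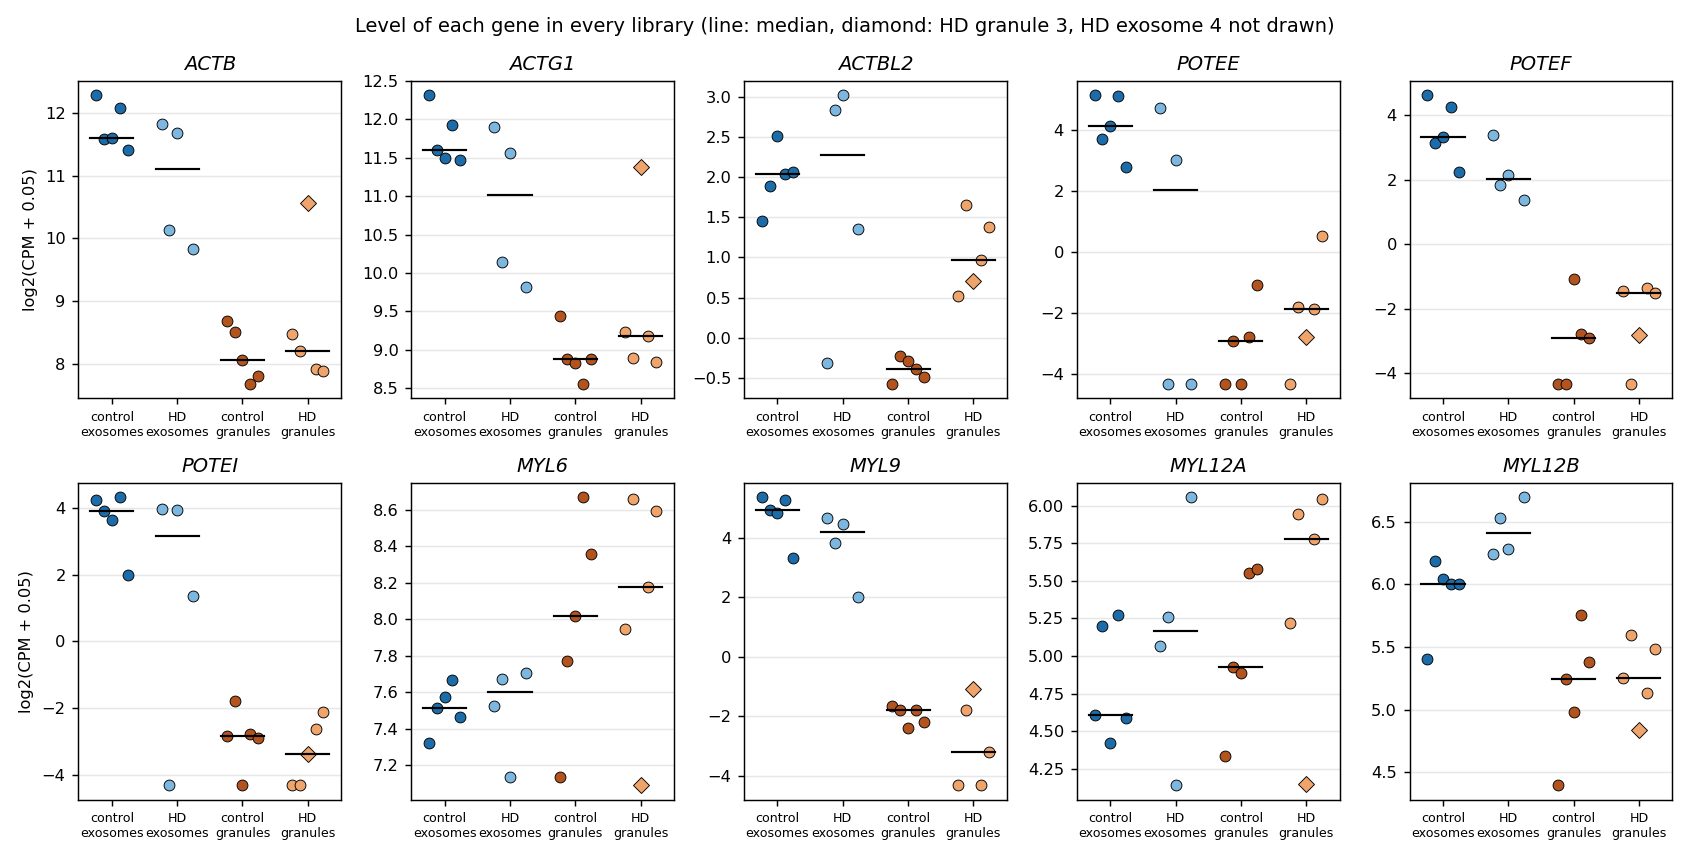
Level of each of the 10 genes, as log2(CPM + 0.05), in every library of the 4 groups, with lines at group medians and HD granule 3 as a diamond. ACTB, ACTG1, the POTE genes and MYL9 sit high in control exosomes and low in control granules, and in HD granule 3 the 2 cytoplasmic actins reach 1519.6 and 2654 CPM while the POTE genes and MYL9 stay under 0.5 CPM.

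Per length, as TPM, which divides by transcript length and by the library's total, the order of the genes changed between the compartments. In control exosomes ACTB came first at 635 ± 165 TPM (SD, n = 5), with ACTG1 at 557 ± 122, and their ranges overlapped. MYL6 followed at 117 ± 18.0, below both actins in every library, then MYL12B at 23.7 ± 5.26 and MYL12A at 14.3 ± 4.70, which overlapped. MYL9 at 2.14 ± 0.842, POTEE at 1.43 ± 0.835, POTEF at 0.827 ± 0.472, POTEI at 0.596 ± 0.273 and ACTBL2 at 0.591 ± 0.156 formed a low tier in which each overlapped the next. In control granules MYL6 led at 124 ± 62.9 TPM, ahead of ACTG1 at 58.9 ± 24.2 and ACTB at 37.9 ± 14.7, again with overlap between neighbours, and the regulatory chains MYL12A and MYL12B stood at 10.7 ± 4.58 and 9.16 ± 3.47. ACTBL2 at 0.0724 ± 0.00886 was above MYL9 (0.0149 ± 0.00590) and above each POTE gene there. The low tier of exosomes thus came apart in granules: ACTBL2, last of 10 in exosomes, was sixth in granules, with no overlap with MYL9 below it.

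The proportion of the 2 cytoplasmic actins to each other was next compared between the compartments. ACTB counts per ACTG1 count were 0.961 to 1.11 in control exosomes and 0.957 to 1.10 in HD exosomes, against 0.471 to 0.771 in control granules and 0.414 to 0.621 in HD granules. All exosome libraries therefore held about 1 ACTB count per ACTG1 count, and all granule libraries held fewer. In HD-induced cells the means were 1.01 ± 0.0592 (SD, n = 4) in exosomes and 0.543 ± 0.0814 (SD, n = 5) in granules. The difference had an exact 2-sided permutation p of 0.00794, the smallest possible here, and an adjusted p of 0.0635 over a family of 24 such tests chosen after the values had been seen, so it did not pass.

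The POTE counts were not a fixed share of the ACTB counts. Control exosomes held 89.9 to 639 POTE counts (POTEE, POTEF and POTEI together) beside 15756 to 40925 ACTB counts, or 15.6, 11.9, 12.8, 16.9 and 5.71 POTE counts per 1000 ACTB counts. Control granules held 1.00 to 7.05 POTE counts beside 2667 to 4608 ACTB counts, or 0.217, 0.883, 1.58, 1.39 and 2.64 per 1000. Every control exosome was above every control granule in this ratio. HD granule 3 gives the ratio at the highest ACTB level among the granule libraries. It held 32637 ACTB counts in a deeper library, 1519.6 CPM, which is below every control exosome, and 5.00 POTE counts, or 0.153 per 1000, the lowest ratio of all libraries with ACTB reads. MYL9 in HD granule 3 was likewise at 0.272 counts per 1000 ACTB counts, beside 3.62 to 9.79 in control exosomes.

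**Figure D2:**
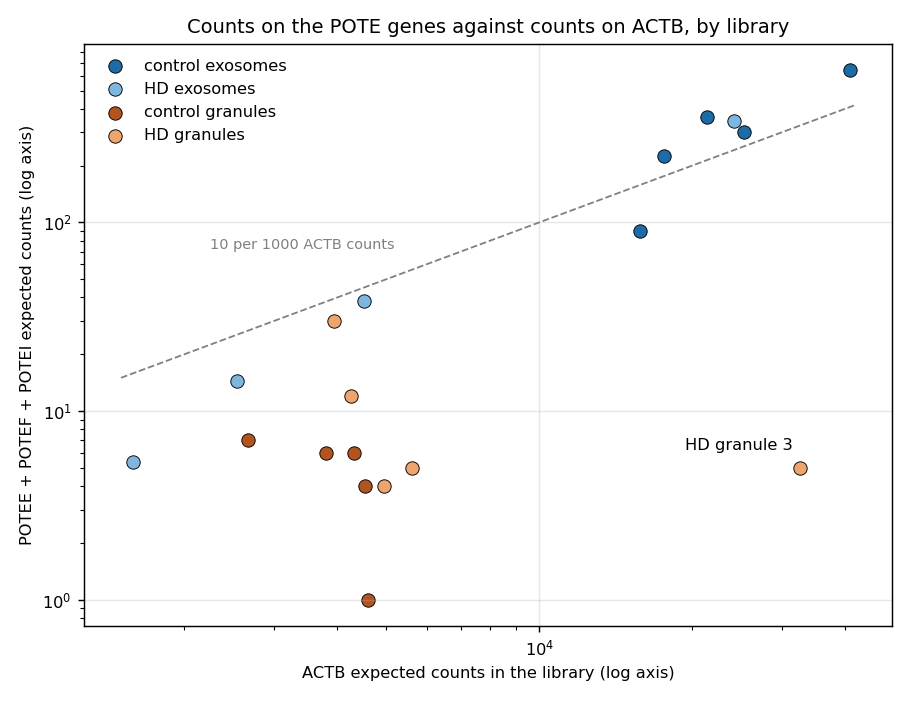
Summed expected counts on POTEE, POTEF and POTEI (vertical log axis) against expected counts on ACTB (horizontal log axis), 1 point per library, without HD exosome 4. Control exosomes lie around the dashed line of 10 POTE counts per 1000 ACTB counts, and HD granule 3 has 32637 ACTB counts with 5.00 POTE counts.

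Single transcripts took different shares of the actin counts in granules and exosomes. In the deposited annotation, transcripts of the retained-intron class made up 0.146% ± 0.0863 (SD, n = 5) of the ACTB counts in control exosomes and 35.3% ± 8.35 in control granules. For ACTG1 the shares were 0.308% ± 0.434 and 27.4% ± 3.55, and for MYL6 2.64% ± 1.44 and 25.03% ± 7.87. The nonsense-mediated decay class of ACTG1 went the other way, with 9.34% ± 8.69 of its counts in control exosomes and 0.157% ± 0.106 in control granules. MYL12A stood apart, with 1.88% ± 1.87 in control exosomes and 4.23% ± 1.85 in control granules, and all MYL12B counts lay on protein-coding transcripts. Retained-intron transcripts of ACTB were at 97.6 ± 10.6 CPM in control granules and 5.29 ± 2.97 CPM in control exosomes, while protein-coding transcripts of ACTB were at 195 ± 85.5 and 3651 ± 973 CPM. Retained-intron shares were not computed for genes other than the members. Whether the difference is particular to these genes or general to the granule libraries was therefore not tested.

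Few transcripts carried these shares. ACTB-206, of the retained-intron class, held 31.7% ± 7.19 of the ACTB counts in control granules and 0.123% ± 0.0792 in control exosomes. It keeps the whole of intron 3 of ACTB, 441 bases long. ACTB-213, which is classed as protein coding but includes 286 bases of intron 1, held 32.8% ± 16.3 in control granules and 0.213% ± 0.112 in control exosomes. ACTB-217, the main transcript, held 72.2% ± 16.3 in control exosomes and 25.2% ± 18.5 in control granules, and the shorter ACTB-212 held 24.5% ± 14.8 and 0.0493% ± 0.110.

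In ACTG1 the retained-intron transcript ACTG1-206 held 23.5% ± 4.56 of the counts in control granules and 0.0619% ± 0.0693 in control exosomes. ACTG1-209, classed as protein coding but with intron 1 whole, held 12.6% ± 2.04 and 0.234% ± 0.180. In MYL6, MYL6-216, which keeps intron 2, held 19.1% ± 5.83 and 1.60% ± 0.959. In MYL12A and MYL12B the difference lay between protein-coding transcripts instead. MYL12A-201 held 75.3% ± 19.7 of MYL12A counts in control granules and 25.1% ± 16.0 in control exosomes, and MYL12A-202 held 17.4% ± 18.4 and 72.9% ± 15.7. MYL12B-205 held 5.52% ± 12.4 in control granules and 53.7% ± 15.9 in control exosomes. Transcripts of 1 gene share most of their sequence, and how reads were divided between them was decided by the authors' quantifier.

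The retained-intron shares were next read in HD-induced cells, whose libraries the choice of genes did not use. Of the ACTB counts, 0.0610%, 0%, 0.344% and 0.134% lay on retained-intron transcripts in HD exosomes 1, 2, 3 and 5. In HD granules 1 to 5 the shares were 35.2%, 47.5%, 4.35%, 43.9% and 69.1%. All granules were above all exosomes, and HD granule 3 was far below the other granules. How many other genes show such a separation was not computed. ACTG1 gave 27.3%, 35.8%, 6.75%, 46.2% and 53.3% in HD granules, against at most 0.398% in HD exosomes, and MYL6 gave 13.9% to 26.3% against 1.59% to 6.15%. Exact 2-sided permutation p-values were 0.0159 for ACTB, 0.0159 for ACTG1 and 0.00794 for MYL6, and each was 0.0635 after adjustment over the 24 tests, so none passed. For MYL12A the shares overlapped, at 2.61% ± 2.29 (SD, n = 4) and 2.67% ± 0.690 (SD, n = 5).

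HD granule 3 held 1419 retained-intron counts of ACTB, the fewest of the HD granules, beside 1871 to 2728 in the other 4. Its ACTB counts in all were 32637, beside 3950.0 to 5618 in the others. The total thus stood further from the other HD granules than the retained-intron counts did. Its share of MYL6 retained-intron counts, 23.8%, was within the range of the other HD granules.

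**Figure D3:**
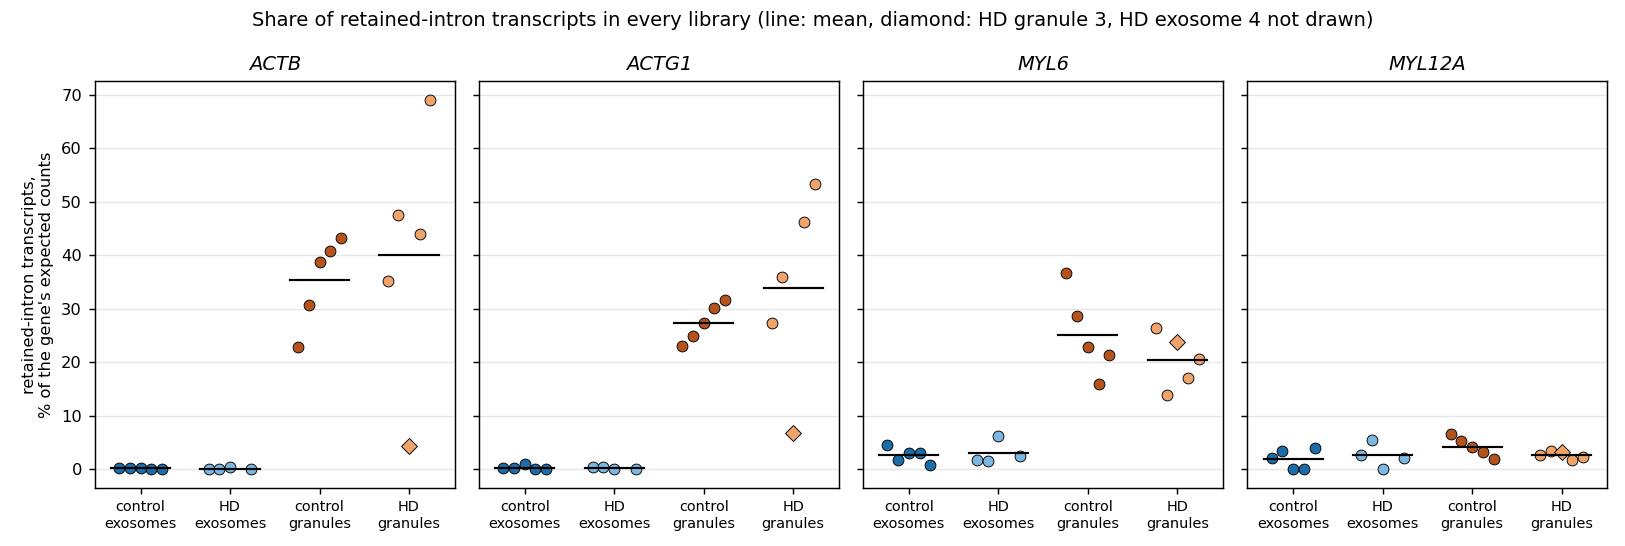
Share of each gene's expected counts on transcripts of the retained-intron class, in percent, in every library of the 4 groups, with lines at group means and HD granule 3 as a diamond. For ACTB, ACTG1 and MYL6 all granule libraries lie above all exosome libraries, HD granule 3 with 4.35% for ACTB is the lowest granule, and MYL12A shows no separation. The shares of genes other than the members were not computed.

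In HD-induced cells, the actins, the POTE genes and MYL9 again had higher means in exosomes, but over all 10 libraries only MYL12B passed the test. Of 6 members that passed the filter on low counts, 1 was called, lower in granules, beside 17.3% of 14431 genes (5.92% lower; 1648 of 2502 calls higher in granules, against 2455 of 3031 with relative log expression factors). MYL12B fell in granules by a log2 fold change of -1.13 ± 0.28 (SE; edgeR adjusted p = 0.0153), from 75.7, 92.3, 77.6 and 104 CPM in HD exosomes 1, 2, 3 and 5 to 38.1, 48.2, 28.5, 35.1 and 44.6 CPM in HD granules 1 to 5. All of these exosomes were above all granules, as for 7.10% of genes. The call was lost with library sizes taken over all estimated reads (-1.03, adjusted p = 0.362).

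ACTB stood at 3664, 1122, 3310.0 and 914 CPM in HD exosomes 1, 2, 3 and 5 and at 355, 295, 1519.6, 239.8 and 235 CPM in HD granules 1 to 5. HD granule 3 was above 2 of the exosomes, and the other 4 granules were below all of them. The log2 fold change was -1.85 ± 0.77 (edgeR adjusted p = 0.108). ACTG1, at 900.5 to 3829 CPM in HD exosomes and 602, 476, 2654, 579 and 456 in HD granules, had -0.998 ± 0.71 (adjusted p = 0.342), and ACTBL2 had -1.02 ± 0.65 (adjusted p = 0.334). MYL6 (0.74 ± 0.37, adjusted p = 0.177) and MYL12A (0.30 ± 0.42, adjusted p = 0.651) did not pass either. Summing members whose reads can be shared did not alter this: ACTB with the 3 POTE genes had -1.87 ± 0.78 (adjusted p = 0.107), all 6 actin-like genes -1.34 ± 0.80 (adjusted p = 0.254) and MYL12A with MYL12B -0.50 ± 0.33 (adjusted p = 0.303).

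These results depended on single libraries. Without HD granule 3, ACTB had -2.78 (adjusted p = 0.00352), ACTG1 -1.86 (0.0186) and MYL6 0.89 (0.0248), and 6 members were called, beside 38.9% of genes. POTEF and MYL9 were among these 6. Without HD exosome 4, ACTB passed at -2.15 (adjusted p = 0.0435), and 4 members were called, beside 18.0% of genes. POTEF and MYL9 were again among them. With HD exosome 2, HD exosome 4 and HD granule 3 all left out, 4 of the 6 members tested over all libraries passed, beside 35.0% of 16456 genes: ACTB (log2 fold change -3.27 ± 0.44), ACTG1 (-2.33 ± 0.43) and MYL12B (-1.09 ± 0.22) fell in granules, and MYL6 (0.85 ± 0.25) rose. The other 4 members passed the filter on low counts in this fit through the exosomes, where they are high, so a count of their calls is no support. The same holds for POTEF and MYL9 in the fits without HD granule 3 or without HD exosome 4. With all 3 libraries left out, the log2 fold changes were -4.69 ± 1.39 for POTEE, -4.62 ± 0.92 for POTEF, -7.08 ± 1.05 for POTEI and -7.68 ± 1.05 for MYL9. By other tools over all libraries, DESeq2 called 1 member beside 16.2% of genes, voom 5 beside 41.6%, and a fit over all 20 libraries 6 beside 35.0%. The 6 of that fit included POTEE, POTEF, POTEI and MYL9, so that count is no support either. These 3 libraries were known to stand apart from earlier results of these data, and HD granule 3 is also the granule library with the most actin.

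POTEE, POTEF, POTEI and MYL9 did not pass the filter on low counts in HD-induced cells. MYL9 had 25.1, 14.2, 21.97 and 3.96 CPM in HD exosomes 1, 2, 3 and 5 and 0, 0.238, 0.419, 0 and 0.0596 CPM in HD granules, 13.6 estimated reads in all 5. The groups of MYL9 did not overlap, and neither did those of POTEF, as for 7.10% of 17084 genes in that direction. With no count filter MYL9 had a log2 fold change of -6.60 ± 0.88 (adjusted p = 0.000173), POTEI -6.68 ± 1.09 (adjusted p = 0.000940) and POTEF -4.57 ± 0.88 (adjusted p = 0.00263), while POTEE at -4.47 ± 1.41 missed the threshold (adjusted p = 0.0593). Under that setting 4 of 10 members passed, beside 11.4% of 37271 genes. POTEE had no read in HD exosomes 2 and 5 and reached 22.6 reads in HD granule 5, its highest granule library. There 87.8% of its counts lay on POTEE-202, of the nonsense-mediated decay class, and 0% on POTEE-201. In control exosomes POTEE-201 held 98.8% ± 2.78 (SD, n = 5) of the POTEE counts.

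**Figure D4:**
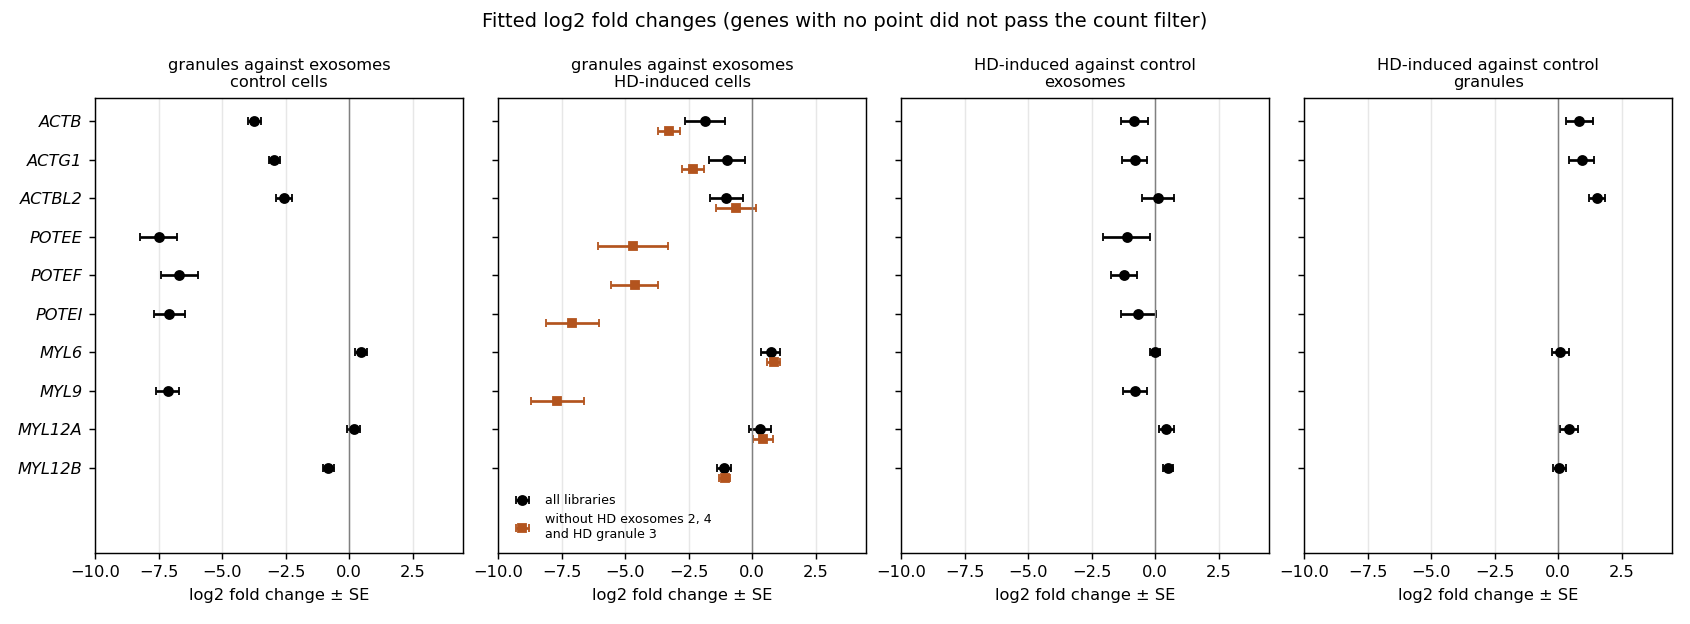
Fitted log2 fold changes with their standard errors for each gene in 4 comparisons, from all libraries (circles) and, for granules against exosomes in HD-induced cells, without HD exosomes 2 and 4 and HD granule 3 (squares). ACTB stood at -3.73 in control cells and at -1.85 in HD-induced cells with all libraries, and at -3.27 without the 3 libraries.

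Between HD-induced and control exosomes none of 10 members passed, as for 0% of 12936 genes (edgeR: 0 genes called and 980 at an unadjusted p under 0.05, 2 of them members, with no gene called by DESeq2 or voom). Without HD exosome 1 the same test called 494 genes, with 3197 at an unadjusted p under 0.05, 5 of them members, and still called no member. ACTB had a log2 fold change of -0.83 ± 0.53 (95% interval -1.86 to 0.21), ACTG1 -0.80 ± 0.49, MYL9 -0.81 ± 0.47 (-1.73 to 0.11), POTEE -1.12 ± 0.92, POTEF -1.22 ± 0.51 and POTEI -0.66 ± 0.69. In ACTB and ACTG1 the HD exosomes fell into a high and a low pair, 1 and 3 above 2 and 5. For MYL6, MYL12A and MYL12B, HD exosomes 2 and 5 were instead above HD exosomes 1 and 3. For ACTB, HD exosomes 1 and 3, at 3664 and 3310.0 CPM, were within the range of the controls, and HD exosomes 2 and 5, at 1122 and 914 CPM, were below it. MYL12B was the member whose ranges did not overlap: the 4 HD exosomes stood at 75.7 to 104 CPM and the 5 controls at 42.3 to 72.5 (0.50 ± 0.21, adjusted p = 0.598), a pattern found for 0.803% of genes in that direction. MYL12A (0.43 ± 0.30) and MYL6, at 141 to 209 CPM beside 159.9 to 203 in controls, overlapped.

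Between HD-induced and control granules none of the 6 members tested passed, again beside 0% of 16750 genes (edgeR: 0 genes called and 214 at an unadjusted p under 0.05, 1 of them a member, with 4 genes called by DESeq2 and 5 by voom, no member among them). Without HD granule 3 there were 1359 genes at an unadjusted p under 0.05, 2 of them members, and still none called. ACTBL2 came nearest. It was at 1.39, 3.10, 1.58, 1.91 and 2.56 CPM in HD granules and at 0.623 to 0.803 CPM in control granules, so that all 5 HD granules were above all 5 controls, as for 0.196% of 15805 genes. The counts behind this are 22 to 51.9 and 7 to 15 per library. Its log2 fold change was 1.53 ± 0.31 (95% interval 0.92 to 2.14) and its adjusted p 1.00, with 0.0508 to 1.00 over the alternatives. ACTB had 0.83 ± 0.53 and ACTG1 0.93 ± 0.50 with all libraries, and without HD granule 3 ACTB had -0.08 and ACTG1 0.08. The other 4 HD granules were at 235 to 355 CPM for ACTB and 456 to 602 CPM for ACTG1, inside the ranges of controls. MYL6, MYL12A and MYL12B overlapped between the groups.

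The difference between the 2 HD effects was not called for any member, beside 0.0186% of 16154 genes (778 at an unadjusted p under 0.05, 3 of them members, and 17 genes called by DESeq2 and 2 by voom, no member among them). Without HD exosome 1 it was called for 28 genes in place of 3, again with no member. ACTB had an interaction of 1.78 ± 0.83 and ACTG1 of 1.85 ± 0.77 on the log2 scale, both with an adjusted p of 0.875. These tests share libraries with the comparisons above.

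The ratio of MYL12B to MYL12A counts was higher in control exosomes than in control granules, without overlap. It was 1.74, 1.98, 3.09, 1.66 and 2.67 in control exosomes and 1.04, 1.25, 1.07, 1.15 and 0.870 in control granules. In HD exosomes it was 2.27, 2.41, 4.42 and 1.56, and in HD granules it was 1.02, 0.783, 1.61, 0.640 and 0.676. Only HD granule 3, at 1.61, reached into the range of the HD exosomes. The exact permutation p in HD-induced cells was 0.0159 (adjusted p = 0.0635), so the difference did not pass there. For MYL9 counts per 1000 ACTB counts, the HD means were 7.62 ± 3.54 (SD, n = 4) in exosomes and 0.256 ± 0.296 (SD, n = 5) in granules (exact permutation p = 0.00794, adjusted p = 0.0635), and for the POTE genes 7.94 ± 4.70 and 2.45 ± 3.04 (exact permutation p = 0.0635, adjusted p = 0.190). HD granule 5 had the highest POTE ratio of the HD granules, 7.59, and most of its POTEE counts lay on POTEE-202.

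Partners of actin and myosin were examined through 11 lists of 106 genes that are no members. In control cells 50 of 85 tested genes were lower in granules and 12 higher, beside 62.4% of all 14777 genes called and 32.5% called lower, with a median log2 fold change of -0.70 beside -0.02 over all genes. In HD-induced cells 17 of 84 fell in granules and 4 rose, beside 17.3% of all genes called and 5.92% called lower, with a median of -0.43 beside 0.15 over all genes. Neither HD-induced exosomes nor HD-induced granules gave a call against their controls.

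The counts of the single lists stand beside the same shares over all genes, and differences between lists were not tested. Of 11 monomer-binding genes, 10 were lower in granules and 1 higher in control cells, beside 32.5% of all genes lower, and 3 were lower and 1 higher in HD-induced cells, beside 5.92% lower. PFN1, which encodes profilin, the carrier of ATP-actin monomers, had -2.41 ± 0.33 in control cells and -1.77 ± 0.51 in HD-induced cells (adjusted p = 0.0293). PFN2, its brain-enriched relative, fell by 1.62 ± 0.33 in HD-induced cells (adjusted p = 0.00755). TMSB4X, which encodes thymosin beta-4, a protein that sequesters monomers, rose by 1.87 ± 0.56 in HD granules (adjusted p = 0.0342). In HD-induced cells it had 55.3 CPM in its lowest granule library and 753.5 in its highest. The list thus held genes moving both ways.

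Among nucleators, the Arp2/3 complex that starts filament branches and the formins, 10 of 16 were lower and 1 higher in control granules, and 5 fell and 1 rose in HD granules. DIAPH1, a formin, had -2.91 ± 0.17 in control cells and -2.28 ± 0.45 in HD-induced cells (adjusted p = 0.00704). The 1 gene of the list that rose in HD granules was ARPC3, an Arp2/3 subunit, at 2.39 ± 0.59 (adjusted p = 0.0154), beside ARPC1A, another subunit, at -1.34 ± 0.30 (adjusted p = 0.0104). Crosslinking and anchoring genes were lower in control granules in 9 of 12 cases, and 2 fell in HD granules: EZR by 1.38 ± 0.30 (adjusted p = 0.00997) and MSN by 1.70 ± 0.41 (adjusted p = 0.0147), which encode ezrin and moesin, linkers of actin to the membrane. Of 9 tropomyosins and calponins tested, 5 were lower in control granules, and TAGLN2, CNN2 and TPM4 fell in HD granules.

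Myosin heavy chains and the genes that act on light chains showed a mixed picture. MYH10, a non-muscle heavy chain, had 0.98 ± 0.14 in control cells and MYH9 had -0.63 ± 0.23, and neither passed in HD-induced cells. Of 12 kinase and phosphatase genes of the regulatory light chain, 5 were higher and 2 lower in control granules, and in HD-induced cells RHOA, the GTPase upstream of the light chain kinases of the ROCK family, fell by 1.32 ± 0.36 (adjusted p = 0.0245). SRF, the transcription factor that drives actin genes, had -1.32 ± 0.27 in control cells and did not pass in HD-induced cells, where its coactivator MRTFB rose by 0.82 ± 0.26 (adjusted p = 0.0457). Of 14 other actin and POTE genes, ACTA2, the smooth muscle actin, was the 1 gene with enough reads: it was at 9.54 to 13.7 CPM in control exosomes and 3.37 to 4.81 in control granules.

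Markers of other cell types were checked because MYL9 is abundant in smooth muscle and platelets. The 10 smooth muscle markers summed to 29.7 to 43.5 CPM in control exosomes, 23.7 to 48.3 in HD exosomes, 19.0 to 31.4 in control granules and 16.2 to 40.3 in HD granules. The 12 platelet markers summed to 60.6 to 89.9, 45.4 to 82.0, 33.02 to 44.3 and 33.4 to 72.6 CPM, and 4 of the 6 tested in control cells were lower in granules. PPBP and GP9 had no read in any group, TREML1 had none in exosomes, and PF4 had reads in control exosomes alone, up to 0.864 CPM. TUBB1, the tubulin of platelets, averaged 9.42 CPM in exosomes of control cells and 0.875 in their granules, and 4.82 and 0.748 CPM in HD-induced cells, the direction of MYL9. RGS18 ran the same way, with means of 7.27 CPM in control exosomes and 14.4 in HD exosomes and no read in granules. ITGA2B and CAVIN2 also had higher means in exosomes, in either set of cells. GNG11 went the other way: its exosome and granule means were 16.5 and 17.8 CPM (control cells) and 14.6 and 22.2 CPM (HD-induced cells), with overlapping ranges. GP1BB had the higher mean in granules only in control cells, and GP1BA and CLU only in HD-induced cells. Keratinocyte markers summed to 14.2 to 119.7 CPM in control exosomes and 2.72 to 5.54 in control granules, and to 29.2 to 1109 and 7.08 to 10.5 in HD-induced cells. Red blood cell markers summed to 46.3 to 140.0 and 9.07 to 20.9 CPM in control cells and to 53.4 to 1342 and 3.26 to 77.5 in HD-induced cells. The part of these cells in the levels of MYL9 and the POTE genes was not tested. The 7 genes chosen to mark HEK293 summed to 2151 to 2432 CPM in control exosomes and 1022 to 1313 in control granules, and all 7 had reads in both.

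Over the 10 control libraries, the genes whose levels ran most like MYL9, by Pearson correlation of log2(CPM + 1) among 11798 genes with a mean of at least 5 CPM, were ENSG00000224864, which has no symbol, at 0.999, EEF1A1P16 at 0.999, ALAS2 at 0.998, ENSG00000218175, also without a symbol, at 0.998 and TUBA4A at 0.997. EEF1A1P16 is a pseudogene of a translation elongation factor, ALAS2 encodes the heme synthesis enzyme of red cell precursors and TUBA4A an alpha-tubulin. All 5 were, like MYL9, high in exosomes and low in granules. The 2 compartments account for most of the spread in these 10 points.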

How the data were processed

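Expected counts and TPM per transcript were deposited by the authors for 20 libraries. The submitters' processing notes name Trimmomatic, cutadapt, FastQC, Salmon and build GRCh38.p14, with no versions, and per the labels' protocols total RNA libraries were stranded and read as 100-base pairs. Counts of 251955 named transcripts were summed to 62266 genes, and 669597 unnamed entries were left out of library sizes and tests (24.9% to 86.6% of estimated reads). Gene sums were rounded and tested in edgeR 4.0.16 with the quasi-likelihood test, trimmed-mean (TMM) scaling, a low-count filter and Benjamini-Hochberg adjustment over all genes, with 0.05 as threshold, in R 4.3.3. Alternatives used DESeq2 1.42.0 and voom in limma 3.58.1. The fit was tested on simulated data with the real library sizes, but with the same spread for every gene and no outlying library. It therefore does not speak for groups with a library apart, such as the HD granules. No 2 libraries held identical values. The members and lists were chosen with earlier results of these data known. All members were named, and up to 4 genes of each list by smallest p, or by largest fold change in control cells. Ratios and shares were tested by exact permutation, added after the values were seen. Promoter and protein sequences were not used here. Of 98 transcripts of the 10 genes, 82 were found by ID in GENCODE 29 and 61 had the same length there. Gene positions are RefSeq's for GRCh38.p14.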

Additional observations from a re-analysis of the deposited data

Results flagged for a closer look

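In 72 groups of 5 or 4 libraries, 8 held a library whose gap to the others exceeded the 95% critical value of Dixon's test, where chance alone gives about 1 in 20, or 3.6. Of these, 2 were in HD granule 3: ACTB at 1519.6 CPM, with the other HD granules at 235 to 355, and ACTG1 at 2654 CPM, with the others at 456 to 602. The other 3 among granules rest on a few reads: POTEE at 0.416 CPM in control granule 5 (others 0 to 0.0947) and at 1.37 CPM in HD granule 5 (others 0 to 0.238), and POTEF at 0.419 CPM in control granule 3 (others 0 to 0.0947). In control exosomes, MYL12B stood at 42.3 CPM in exosome 1 (others 63.9 to 72.5). The retained-intron share of ACTG1 counts was 1.06% in control exosome 3 (others 0.0166% to 0.283%), and MYL9 was at 3.62 counts per 1000 ACTB counts in control exosome 5 (others 8.19 to 9.79).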

How the results depend on the processing

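The log2 fold changes of control cells kept their direction in all 242 alternative values. Of 700 alternative values in the tested comparisons, 678 kept direction and side of the threshold. In HD-induced granules against exosomes the number of members called was 1 with all libraries, beside 17.3% of genes. It was 0 with library sizes over all estimated reads, beside 852 of 14431 genes, and 4 with no count filter, beside 11.4% of genes. With voom it was 5 (41.6% of genes) and in a fit over all 20 libraries 6 (35.0%). Without HD exosomes 2 and 4 and HD granule 3 it was 8 (35.0%), where all 10 passed the filter. It was 1 to 6 with 1 library left out: 6 without HD granule 3 (38.9% of genes) and 4 without HD exosome 4 (18.0%). Without HD granule 1, 2, 4 or 5 it was 3, where 8 members in place of 6 passed the filter. Genes called there were 1477 of 13646, 1235 of 13790, 1349 of 13805 and 1240 of 13819. Of the counts above 1, only that of voom held neither POTE genes nor MYL9. Where a filter was used, these genes passed it through the exosomes, so those counts are no support. Without the 3 libraries the sum of the actin-like genes had -2.74 and ACTB with the POTE genes -3.28. With 1 library left out these sums ranged from -2.21 to -0.87 and from -2.79 to -1.43. Directions turned for ACTBL2 in HD granules against HD exosomes with voom (0.00310), and for ACTB in HD against control granules with voom (-0.0136), without the 3 libraries (-0.082) and without HD granule 3 (-0.082), where leaving out 1 library gave -0.082 to 1.01. The cause was not tested. The 2502 genes called in HD-induced granules against exosomes became 852 to 6009 under the alternatives. With relative log expression factors the median log2 fold change over all genes was 0.32 there, beside 0.15, and 0.09 beside -0.02 in control cells. Upper-quartile factors could not be fitted where HD exosome 4 takes part. For single ratios and shares, 84 of 85 alternatives, chosen after the values were seen, gave the same verdict, that the difference did not pass. In HD granules against HD exosomes, leaving out a library left too few permutations for any difference to pass. That agreement is therefore no support.

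Replicate numbers are not stated to mark a shared culture, and same-numbered libraries correlated from -0.228 to 0.577. With a replicate block the members called stayed 1, 0, 0 and 0 in the 4 tested comparisons, MYL12B had -1.11 (adjusted p = 0.000992), and genes called went from 2502 to 4137 in HD-induced granules against exosomes and from 0 to 299 between exosomes. Between granules and exosomes, 1 library correlated best with its own number in control cells and 1 in HD-induced cells. Between HD-induced and control libraries, 2 did so in exosomes and 1 in granules.

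Depth limits the HD exosomes most: in HD exosome 4, 1 read is worth 112 CPM, and POTE and MYL9 levels in granules rest on a few reads per library.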
